A study of Homo sapiens with 2 samples.

Results

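The olfactory receptor (OR) genes of human chromosome 11 were examined for accessible chromatin in CAL27 cells, a human line grown from a squamous cell tumour of the tongue. Members were the protein-coding genes of the RefSeq annotation on chromosome 11 (hg38) whose symbol is OR, a number, letters and a number. The rule gave 171 genes. Of these, 168 have a position on the chromosome itself and were analysed, of 19821 protein-coding genes in all. OR8U8, OR8U9 and OR9G9 are listed on sequences outside the primary chromosome and could not be compared with the regions. The study profiled 1 library of cells exposed to 10 mM lactate over 24 h and 1 library of untreated cells by ATAC-seq, an assay that uses Tn5 transposase to tag accessible DNA. Both libraries come from the same cell line, and no treatment is named for the untreated cells. Neither group has a replicate, so every difference below is between these libraries and not shown to be one between the conditions.

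The lactate library holds 15401276 tags and the untreated library 18248413, and the lactate list holds 122399 regions and the untreated list 98152 on chromosomes 1 to 22 and X. A region is a stretch that the authors' peak caller listed as accessible. Of 12 markers of squamous epithelium, 10 had a region within 1 kb of an annotated gene end in both libraries, and KRT14 and TP63 had none at theirs. Only the outermost ends of each gene model were scored. Any start inside a long model, such as that of TP63 (chromosome 3, 189596746 to 189897276), was not examined. Of 12 markers of olfactory sensory neurons, 8 had one in the lactate library and 5 in the untreated library. Their defining member OMP, the olfactory marker protein gene, had none in either library, nor did CNGA2, CNGB1 and STOML3. GNAL, CNGA4, RTP2, EBF1 and LHX2 had one in both libraries, and ADCY3, RTP1 and ANO2 in the lactate library alone. Over all protein-coding genes the shares were 68.3% in the lactate and 63% in the untreated library. The interval of the squamous list (51.6 to 97.9 in each library) includes them. So do those of the olfactory list (34.9 to 90.1 in the lactate and 15.2 to 72.3 in the untreated library). Of 5 fibroblast markers 2 had a region in the lactate library and 3 in the untreated library, of 4 leukocyte markers 2 in each, and of 4 endothelial markers 0 in each, which allows up to 60.2%. All intervals are exact 95% intervals that cover counting error only. Neighbouring OR genes are not independent of each other, which these intervals do not take into account.

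Olfactory receptors are G protein-coupled receptors that bind odorants on olfactory sensory neurons. Each such neuron transcribes 1 allele of 1 receptor gene, while the other receptor genes stay packed in heterochromatin. Chromosome 11 carries the largest share of the family, including all class I receptors, the families related to those of fish, beside many class II receptors. The 168 genes are 43.4% of the 387 OR genes placed by the same symbol rule on all chromosomes used. They comprise 55 class I genes (families OR51, OR52 and OR56) and 113 class II genes, in 11 families and 81 subfamilies. Their gene models run between 912 bp and 165335 bp with a median of 1103 bp. A typical receptor is encoded in 1 uninterrupted coding exon, and models well above that length often carry upstream exons.

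The sequence around the annotated starts of these genes differs from that of most protein-coding genes. The promoter windows that turn up in the results are printed here. A promoter window is 250 bases before to 50 after an annotated start (RefSeq, GRCh38.p14), and 135 of the 168 genes have one in the table. Of the 168 gene models, 92 are under 2 kb. A short model may begin at the coding start, and its window may then miss the promoter. In the OR5M10 window, the 50 bases after the annotated start open with ATG, the start codon. How many windows are placed this way was not tested, which limits the comparisons with other genes below. OR52N2 (chr11:5808674-5808973, plus strand), OR6A2 (chr11:6799640-6799939, minus strand) and OR5M10 (chr11:56577672-56577971, minus strand) are the members whose window was overlapped by a region. OR4C13 (chr11:49952141-49952440, plus strand) has the strongest region on the start side of a member, upstream of its window. OR51E1 (chr11:4643732-4644031, plus strand), whose window has no region, has the highest content of G and C among the members. Sequences run 5′ to 3′ and capitals mark matches to the motifs named after them.
OR52N2: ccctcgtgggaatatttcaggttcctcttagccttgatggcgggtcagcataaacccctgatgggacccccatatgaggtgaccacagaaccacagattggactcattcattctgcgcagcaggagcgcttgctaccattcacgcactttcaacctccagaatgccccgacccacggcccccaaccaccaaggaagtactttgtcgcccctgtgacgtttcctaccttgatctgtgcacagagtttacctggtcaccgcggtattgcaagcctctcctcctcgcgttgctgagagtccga
OR6A2: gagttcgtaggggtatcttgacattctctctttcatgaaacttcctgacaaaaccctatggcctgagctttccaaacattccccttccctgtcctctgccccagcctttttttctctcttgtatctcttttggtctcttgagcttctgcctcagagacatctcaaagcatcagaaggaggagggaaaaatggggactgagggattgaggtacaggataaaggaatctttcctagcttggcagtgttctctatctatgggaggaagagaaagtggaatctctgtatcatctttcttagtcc
OR5M10: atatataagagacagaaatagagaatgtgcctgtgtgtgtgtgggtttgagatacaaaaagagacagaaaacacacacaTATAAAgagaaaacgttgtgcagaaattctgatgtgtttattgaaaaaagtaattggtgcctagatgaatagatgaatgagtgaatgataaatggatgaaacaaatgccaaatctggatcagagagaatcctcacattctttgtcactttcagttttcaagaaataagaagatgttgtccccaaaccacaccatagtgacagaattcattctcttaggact
OR4C13: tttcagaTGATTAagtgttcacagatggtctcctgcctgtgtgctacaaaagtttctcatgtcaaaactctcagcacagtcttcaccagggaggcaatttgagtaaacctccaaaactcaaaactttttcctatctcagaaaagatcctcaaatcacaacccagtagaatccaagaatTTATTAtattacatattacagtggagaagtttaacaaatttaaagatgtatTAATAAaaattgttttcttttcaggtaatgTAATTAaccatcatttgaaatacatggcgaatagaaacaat
OR51E1: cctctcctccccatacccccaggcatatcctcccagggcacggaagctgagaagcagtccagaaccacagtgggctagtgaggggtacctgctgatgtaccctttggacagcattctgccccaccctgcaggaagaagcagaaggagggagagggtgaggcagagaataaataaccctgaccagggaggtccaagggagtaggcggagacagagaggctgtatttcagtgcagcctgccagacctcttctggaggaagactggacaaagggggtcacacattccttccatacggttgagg

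Motifs were searched on both strands in these windows. They were the EBF site CCCNNGGG, the homeodomain core TAATNA that includes sites of the LHX2 type, the TATA box TATAAA, the AP-1 site TGANTCA and the CTCF core. EBF and LHX2 factors are known to act at OR promoters and enhancers in olfactory neurons. The homeodomain core was found in 93 of 135 member windows (68.9%), against 18% of the windows of all protein-coding genes. The EBF site was found in 11 (8.15%), against 21.5% of all windows. The TATA box was found in 48 (35.6%), against 9.75%, the AP-1 site in 15 (11.1%), against 5.7%, and the CTCF core in 1 (0.741%), against 2.72%. The homeodomain and TATA motifs hold only A and T at their fixed positions, and the windows also differ in base composition, given next, whose part in these shares was not tested. In the printed windows, OR4C13 holds 4 homeodomain matches, OR5M10 holds 1 TATA box, and OR52N2, OR6A2 and OR51E1 hold no match.

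Member windows were poor in G and C and in CpG. The median content of G and C was 37%, with a range of 24.3% to 57%, over 135 OR genes of chromosome 11, against a median of 62% over the 818 other protein-coding genes of that chromosome with a window. The median observed over expected CpG was 0.113 in the OR windows and 0.788 in the others. No CpG at all was present in 36 OR windows (26.7%), against 18 of the other windows (2.2%). Only 4 of the 135 OR windows (2.96%) exceeded 50% G and C, those of OR51E1, OR52N2, OR52K1 and OR5B2. The OR52N2 window holds 14 CpGs at 55.3% G and C, the most CpGs of any member window, and it is one of the 3 with a region over it. OR6A2 and OR5M10 hold 1 CpG each at 45.3% and 35% G and C.

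**Figure D1:**
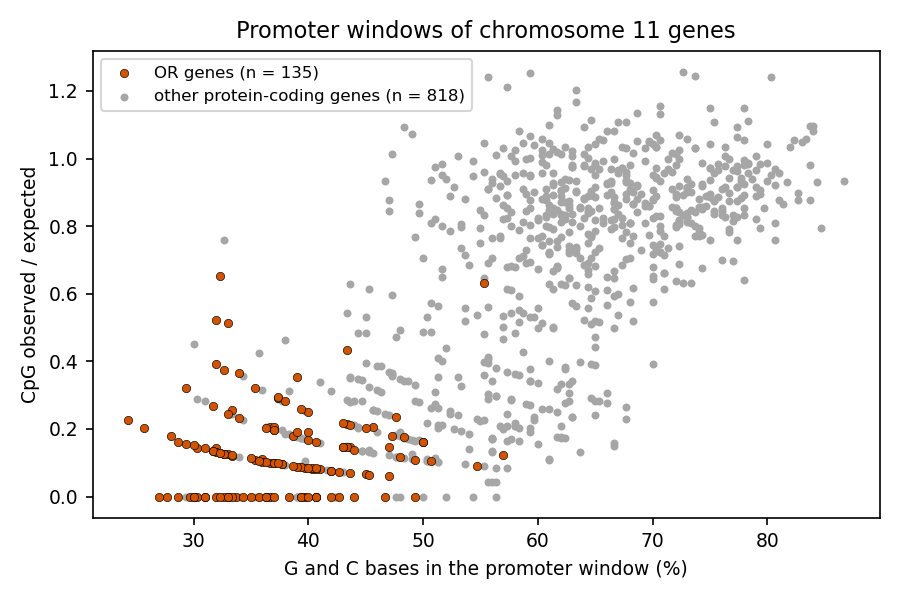
Observed over expected CpG plotted against the percentage of G and C bases in the promoter window, 1 point per chromosome 11 gene, with OR genes in orange and other protein-coding genes in grey. OR genes sit at the lower left, with a median of 37% G and C against 62% for the others, and the OR gene near 0.63 on the vertical axis and 55% on the horizontal axis is OR52N2.

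Regions lay over 3 of 135 OR promoter windows in the lactate library (2.22%, 0.461 to 6.36) and over 3 of 135 in the untreated library, at the same 3 genes. Over all protein-coding genes with a window the shares were 59.5% in the lactate library and 54.5% in the untreated library. Among the other protein-coding genes of chromosome 11 the shares were 65.3% (61.9 to 68.5) in the lactate library and 60.9% (57.4 to 64.2) in the untreated library. Base composition moves with this difference. Among windows with at most 50% G and C, 2 of 131 OR windows had a region in each library (1.53%, 0.185 to 5.41). Of the 136 other chromosome 11 windows in that range, 33 (24.3%, 17.3 to 32.4) had one in the lactate library and 28 (20.6%, 14.1 to 28.4) in the untreated library. This range does not match composition, since the OR windows lie lower within it. In narrower ranges, chosen after the values had been seen, counts were small. Between 35% and 40% G and C, 0 of 42 OR windows had a region in each library (up to 8.41%), against 4 of 38 other windows (10.5%, 2.94 to 24.8). Between 40% and 45%, 0 of 27 OR windows did (up to 12.8%), against 6 of 30 others (20%, 7.71 to 38.6), again in each library. Between 45% and 50%, 1 of 13 OR windows did in each library (7.69%, 0.195 to 36.0). Of 58 others, 22 (37.9%, 25.5 to 51.6) did in the lactate and 18 (31%, 19.5 to 44.5) in the untreated library. At 35% or less, 1 of 49 OR windows did in each library (2.04%), against 1 of 10 others in the lactate and 0 in the untreated library. The OR share was the lower except in this last range in the untreated library. Intervals overlap within each range, and a difference at equal composition was not tested. No member window shared an identical stretch of 130 bases, the tag length of the lactate library, or of 129 bases, that of the untreated library, with the window of another gene in the table.

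Few OR genes had an accessible region at either end. An end region is one that overlaps the 1 kb on either side of a gene's annotated start or end. It was present at 16 of 168 genes in the lactate library (9.52%, 5.54 to 15.0) and at 13 in the untreated library (7.74%, 4.18 to 12.9). Over all 19821 protein-coding genes the shares were 68.3% in the lactate library and 63% in the untreated library. In total 151 members (89.9%) had none in either, compared with 30.9% of all protein-coding genes.

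Other sensory receptor genes had similarly low shares. OR genes of other chromosomes had an end region at 24 of 219 genes in the lactate library (11%, 7.15 to 15.9) and at 19 in the untreated library (8.68%, 5.3 to 13.2), so the intervals of both OR groups overlap. The bitter taste receptor genes (TAS2R), another sensory receptor family, had 1 of 24 in each library, and the vomeronasal receptor genes (VN1R) 0 of 3, which allows up to 70.8%. Among 20 housekeeping genes of chromosome 11, 19 had an end region in both libraries and the proteasome gene PSMA1 had none. Any start inside its long model (14504876 to 14643662) was not examined. The 1129 other protein-coding genes of chromosome 11 had one in 70% of cases (67.2 to 72.6) in the lactate library and 65.5% (62.6 to 68.2) in the untreated library. The 205 OR pseudogenes of chromosome 11, examined after the values had been seen, stood at 11 (5.37%, 2.71 to 9.4) in the lactate and 10 (4.88%, 2.36 to 8.79) in the untreated library.

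**Figure D2:**
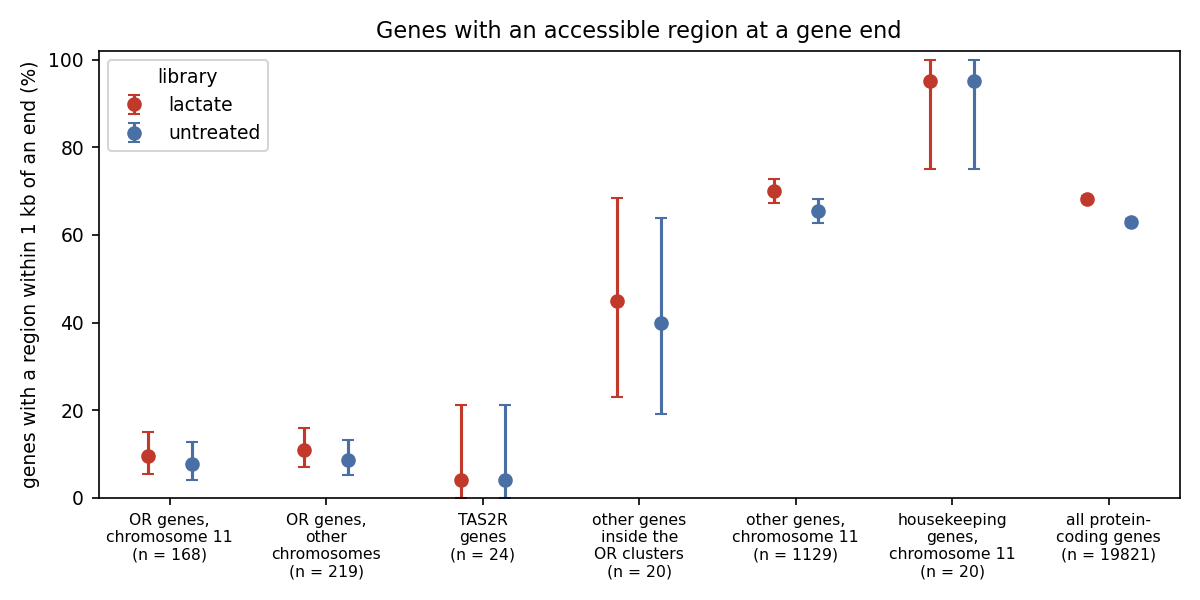
Percentage of genes with a region within 1 kb of an annotated end, by gene group, in the lactate (red) and untreated (blue) library, with exact 95% binomial intervals as bars. OR genes of chromosome 11 stand at 9.52% in the lactate and 7.74% in the untreated library, beside OR genes elsewhere and below the other genes of the chromosome.

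OR genes have short models, so their end windows overlap and cover less sequence per gene. Counted per length, the windows of the 168 members cover 0.572 Mb and held 17 regions in the lactate library (29.7 per Mb) and 13 in the untreated library (22.7 per Mb). The windows of the other chromosome 11 genes held 222 lactate and 202 untreated regions per Mb. Members with models of 2 kb or more had a region in 10 of 76 cases in the lactate library (13.2%, 6.49 to 22.9) and 7 in the untreated library. Those under 2 kb had one in 6 of 92 cases in each library (6.52%, 2.43 to 13.7).

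Class I genes had an end region at 5 of 55 genes in each library (9.09%, 3.02 to 19.95). Class II genes had one at 11 of 113 genes in the lactate library (9.73%, 4.96 to 16.7) and at 8 in the untreated library (7.08%, 3.11 to 13.5). These intervals overlap. The 5 class I genes, OR52K2, OR52K1, OR51D1, OR56B1 and OR52N2, were the same in both libraries. By family, the lactate library listed 3 of 25 OR52 genes, 1 of 23 OR51 genes, 1 of 7 OR56 genes, 3 of 34 OR5 genes, 2 of 22 OR8 genes, 2 of 16 OR10 genes, and 1 each of 24 OR4, 5 OR2, 5 OR6 and 5 OR9 genes. The untreated library listed 3 of 25 OR52, 1 of 23 OR51, 1 of 7 OR56, 3 of 34 OR5, 2 of 22 OR8, 2 of 24 OR4 and 1 of 5 OR6 genes, and none of the OR2, OR9 and OR10 genes. Neither library listed an OR1 gene, of which the chromosome carries 2.

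Of the 17 members with a region in either library, 12 had one in both (70.6%, 44 to 89.7), against 89.9% of all protein-coding genes open in either. The 12 are 7.14% of the members, and 62.2% of all protein-coding genes had a region in both. Regions in the lactate library alone were found at 4 members (2.38%, 0.653 to 5.98), against 6.11% of all protein-coding genes. A region in the untreated library alone was found at 1 member (0.595%, 0.0151 to 3.27), against 0.843% of all protein-coding genes. Members were not matched to other genes on the strength of their regions.

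The tallest member region lay near OR5T2, a class II receptor gene, 593 bp beyond its 3′ end (chromosome 11, 56230460 to 56230689). Pileup is the count of extended tags that cover a region's highest point. It was 505 in the lactate library and 435 in the untreated library. The fold enrichment over local background was 44.7 in the lactate library and 43 in the untreated library. Both libraries list exactly the same 230 bp. Divided by each library's total tags, the ratio of lactate to untreated was 1.38 (conditional Poisson interval 1.21 to 1.57). This interval and those of the ratios below treat tags as independent counts. All duplicates were kept, so the intervals may be too narrow.

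OR4C13 had a region 499 bp before its start (chromosome 11, 49951673 to 49951892), with a pileup of 111 in the lactate library and 51 in the untreated library. The folds were 33.5 in the lactate and 21.7 in the untreated library, and the ratio was 2.58 (1.83 to 3.67). OR5T3, close to OR5T2, had a region 821 bp beyond its 3′ end (56254043 to 56254263), with pileups of 48 in the lactate and 38 in the untreated library and a ratio of 1.5 (0.958 to 2.35). These regions are 220 bp and 221 bp wide, again with the same boundaries in both libraries. OR8J1 had a pileup of 21 in the lactate library and 8 in the untreated library, just beyond its 3′ end (56361544 to 56361763 in the lactate list). Its ratio of 3.11 (1.32 to 8.12) was the highest of the 12 members. OR8A1 had a pileup of 16 in the lactate and 13 in the untreated library 320 bp before its start, with a ratio of 1.46 (0.658 to 3.3). OR5M10 had pileups of 18 in the lactate and 14 in the untreated library 197 bp before its start, reaching into its promoter window (56577918 to 56578117), with a ratio of 1.52 (0.716 to 3.31). Ratios above 1 were the rule in these libraries, at 88.7% of all merged regions. Set against regions with as many summit tags, OR4C13 stood at 1.33 (0.946 to 1.89) and OR8J1 at 2.25 (0.957 to 5.87), so both intervals include 1.

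Among class I genes, OR56B1 had the tallest region, inside its gene model near the 3′ end (5737837 to 5738111, 275 bp). This stretch also lies within the longer gene model of OR52N4. The pileup was 64 in the lactate library and 33 in the untreated library, with a fold of 22 in the lactate and 11.4 in the untreated library and a ratio of 2.3 (1.49 to 3.61). OR52K1 had a region across its 3′ end (4492896 to 4493569 in the lactate list), with pileups of 36 in the lactate and 19 in the untreated library and a ratio of 2.24 (1.25 to 4.14). OR51D1 had a region at its lower-coordinate end, with pileups of 22 in the lactate and 13 in the untreated library and a ratio of 2 (0.966 to 4.33). Set against regions with as many summit tags, the values were 1.26 for OR56B1 (0.817 to 1.98), 1.34 for OR52K1 (0.747 to 2.47) and 1.34 for OR51D1 (0.644 to 2.89), and all 3 intervals include 1. The class I regions were wider than those of class II, with class I and class II medians of 347 bp and 220 bp in the lactate library and of 561 bp and 204.5 bp in the untreated library. These medians rest on 6 and 11 regions in the lactate library and on 5 and 8 in the untreated library.

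OR52N2 had a region across its start in both libraries, over the promoter window printed above. The lactate list gives 1 region of 475 bp (5808488 to 5808962) with a pileup of 14, and a further 1 of 395 bp (5807722 to 5808116) with a pileup of 9. The untreated list gives 1 of 883 bp (5808341 to 5809223) with a pileup of 17. The ratio at the start was 0.976 (0.445 to 2.1). OR6A2 had a region across its start with a pileup of 9 in the lactate library and 10 in the untreated library and a ratio of 1.07 (0.383 to 2.92). OR52K2 had one 3′ of the gene with a pileup of 8 in the lactate and 10 in the untreated library and a ratio of 0.948 (0.325 to 2.67). For these 3 genes the interval of the ratio includes 1.

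The 4 members with a region in the lactate library alone were OR10S1 (pileup 11, fold 6.02), OR2AT4 (pileup 14, fold 5.95), OR10A3 (pileup 9, fold 5.02) and OR9Q1 (pileup 8, fold 4.51). No untreated region overlapped any of them. OR4A16 had one in the untreated library alone, inside the gene (pileup 10, fold 5.05), while the nearest lactate region lay 1245 bp from a gene end with a pileup of 6. OR2AT4, a receptor for sandalwood odorants that has been described in epidermal keratinocytes, had its region 980 bp inside the lower-coordinate end (75082733 to 75082945). It was the member region closest to the 1 kb limit in the lactate list. Just beyond that limit lay regions of OR4C11 at 1222 bp (pileup 15), OR4A16 at 1245 bp and OR4S1 at 1422 bp (pileup 15) in the lactate list. In the untreated list the last inside was OR5T3 at 821 bp, and the first outside were OR4S1 at 1403 bp (pileup 31), OR51M1 at 1667 bp (pileup 31) and OR5J2 at 1693 bp (pileup 29).

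**Figure D3:**
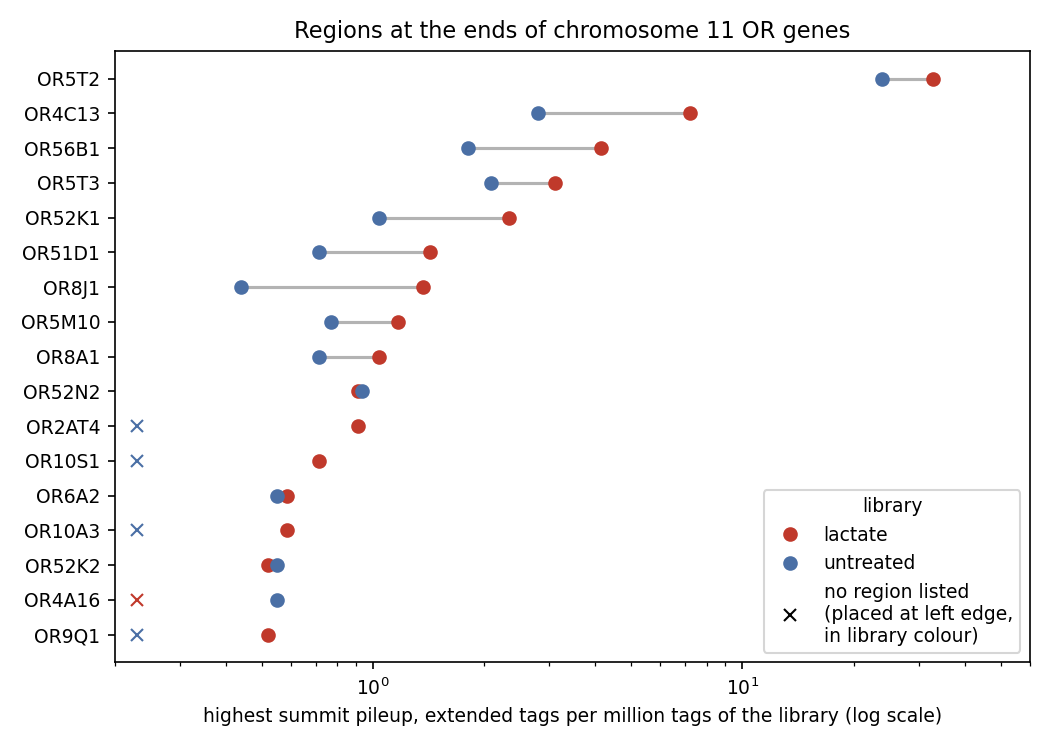
Highest summit pileup per 1000000 library tags (log scale) at each of the 17 members with an end region, lactate in red and untreated in blue, with crosses at the left edge where a library lists none. OR5T2 stands apart in both libraries. The 5 members listed in 1 library alone all lie below 1, as do OR52K2, OR6A2 and OR52N2, which both libraries list.

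Receptors known outside the nose were looked at by name. OR51E2 is a receptor for short-chain fatty acids found in prostate, and its mouse counterpart has been reported to respond to lactate. It had no gene-end region in either library, the nearest being 15.9 kb away in the lactate list and 9.54 kb away in the untreated list, and no region lay inside its gene model. Its neighbour OR51E1, which also responds to short-chain fatty acids, had none within 6.75 kb in the lactate list and 6.48 kb in the untreated list. OR51B4, described in colon cancer cells, had none within 9.44 kb in the lactate list and 9.43 kb in the untreated list. OR51B5 had none at its ends, while its gene model of 165335 bp held 7 lactate and 4 untreated regions. That model also spans other OR51 genes.

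Regions inside the gene models were also counted. In the lactate library 15 members held at least 1 region within the model (8.93%, 5.08 to 14.3), against 82.3% of all protein-coding genes. In the untreated library 13 did (7.74%, 4.18 to 12.9), against 78.2% of all protein-coding genes. Most member models are short, and per length of gene model the members held 24.6 lactate and 16.7 untreated regions per Mb, against 50.4 lactate and 40.9 untreated regions per Mb over all protein-coding genes. The long model of OR9Q1 (157736 bp) held 6 lactate and 3 untreated regions, OR52K1 held 2 in each library, and apart from OR51B5 the other members with any held 1. A region near the middle of OR5D3 (55726624 to 55726845, 222 bp) was among the strongest of all OR clusters, with a pileup of 443 in the lactate library and 246 in the untreated library.

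At the 12 merged regions at member ends listed in both libraries, summits were taller in the lactate library in 10 cases relative to total tags. This is 83.3%, near the 88.7% of all 86803 merged regions. The median ratio was 1.51 at the members, with a range of 0.948 to 3.11. It was 1.8 over all gene ends and 1.65 over all merged regions. Set against regions of equal summit tags, the median at the members was 1.05, with 7 of 12 above 1. On this relative scale OR5T2 stood at 0.722 (0.634 to 0.823), the member with the narrowest interval. Values below 1 were common, since 42429 of all 86803 merged regions stood above 1. With the narrow class described below left out, 37860 of 73366 did. OR5T2 lies close to that class in width and was not set against it alone.

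Member regions were narrower than regions at other gene ends and, at several genes, identical in both libraries. In the lactate library the median width was 221 bp over 17 regions at member ends, against 638 bp over 893 regions at the ends of other chromosome 11 genes. In the untreated library it was 220 bp over 13 member regions, against 652 bp over 813 at other genes. Over all regions of each list the median was 311 bp in the lactate and 319 bp in the untreated library. At OR genes of other chromosomes it was 277 bp in the lactate and 216.5 bp in the untreated library, so the small width is not particular to the members. A width of 500 bp or more was reached by 1 of the 17 lactate regions (5.88%, 0.149 to 28.7) and 3 of the 13 untreated regions (23.1%, 5.04 to 53.8), against 61.8% of lactate and 63% of untreated regions at other genes of the chromosome. The shortest width listed, 200 bp, was found at 4 lactate (23.5%) and 5 untreated (38.5%) member regions. It was found at 10.9% of all lactate and 13% of all untreated regions. At the ends of other chromosome 11 genes it was 2.69% of lactate and 4.3% of untreated regions. At OR genes of other chromosomes it was 14.8% of lactate and 31.8% of untreated regions, so this width too is not particular to the members.

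Both libraries gave the same start and end at 5 member regions, those of OR56B1, OR4C13, OR5T2, OR5T3 and OR5M10. That is 29.4% of the lactate and 38.5% of the untreated member regions. At all gene ends it held for 1.49% of lactate and 1.66% of untreated regions. Over all listed regions, at gene ends or not, it held for 11.5% of lactate and 14.4% of untreated ones. Single-summit regions about 220 bp wide, a narrow class that makes up 16.1% of the lactate and 17.3% of the untreated list, account for 4 lactate and 2 untreated member regions. In that class 64% of lactate and 74.1% of untreated regions had boundaries identical to the other list, against 1.45% of lactate and 1.84% of untreated regions of the rest. OR5T2 at 230 bp lies just above the limit used. The part of this class in the member results was not tested beyond leaving it out, which left 12 members with a region in the lactate library (7.14%) and 11 in the untreated library (6.55%). Over all protein-coding genes the same step left 67.3% in the lactate and 62% in the untreated library.

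**Figure D4:**
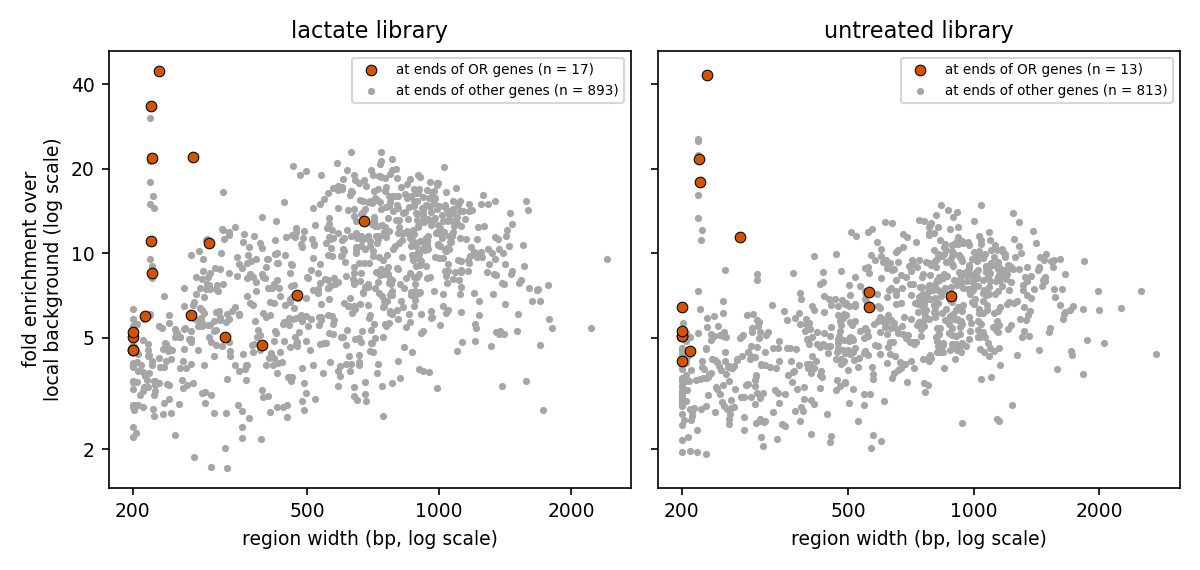
Fold enrichment against region width (both log scales) for regions at the ends of OR genes (orange) and of other chromosome 11 genes (grey), with the lactate library on the left and the untreated library on the right. Member regions crowd between 200 and 300 bp, some with folds above 20, while the grey points spread to far greater widths.

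The local background around member regions was low. The peak caller takes the higher of the genome-wide expectation and the tag density of the surrounding 10 kb. The genome-wide value, 0.994 tags in the lactate and 1.18 in the untreated library, applied at 7 of 17 lactate member regions (41.2%) and 6 of 13 untreated ones (46.2%). Among regions at the ends of other chromosome 11 genes it applied at 5.26% in the lactate library and 2.95% in the untreated library. Over all regions it applied at 28% in the lactate and 18.6% in the untreated library. Inside the OR clusters it applied at 51.3% of lactate and 41.6% of untreated regions. At OR genes of other chromosomes these shares were 44.4% in the lactate and 13.6% in the untreated library. A region with 8 tags at its summit, as at OR9Q1, was thus listed at a fold of 4.51.

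The genes lie in runs, and 159 of the 168 fell into 7 clusters of at least 5 members with gaps of at most 500 kb. Together the clusters cover 5.57 Mb and held 28 lactate and 22.5 untreated regions per Mb. The rest of chromosome 11, between its outermost genes, held 47.1 lactate and 37.7 untreated regions per Mb. The cluster between OR52B4 and OR52W1 (4367263 to 6200186) holds all 55 class I genes, with 32.7 lactate and 28.4 untreated regions per Mb. The cluster between OR4A16 and OR5AK2 (55343201 to 56989843), with 46 class II genes, held 21.9 lactate and 18.8 untreated regions per Mb. The sparsest was that between OR4B1 and OR4A47 (48216810 to 48489722), where 2 lactate regions and 1 untreated region were listed over 0.273 Mb and none of 7 members had one at an end.

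The densest cluster was the one between OR5AN1 and OR10V1 (59358895 to 59713845), with 47.9 lactate and 45.1 untreated regions per Mb. None of its 8 OR genes had an end region, whereas both other genes inside it did, the oxysterol-binding protein gene OSBP and the RNA decay gene PATL1. The cluster between OR9Q1 and OR5B21 held 15 lactate regions and 7 untreated regions, and the one between OR6X1 and OR8A1 held 21 lactate and 13 untreated regions. The cluster between OR2AG2 and OR2D3 held 5 in each library. Of all regions inside the clusters, 109 of 156 lactate regions (69.9%, 62 to 77) overlapped an untreated region and 107 of 125 untreated regions (85.6%, 78.2 to 91.2) overlapped a lactate region. For the chromosome outside the clusters these shares were 72.8% of lactate regions (71.7 to 73.9) and 90.4% of untreated regions (89.5 to 91.2), and the intervals overlap in both cases.

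Among regions inside the clusters, the highest fold in the lactate list was 45.3 at a region within the gene model of the metalloproteinase gene MMP26 (4741717 to 4741938, 222 bp), 27041 bp from OR51F1, with a pileup of 544 in the lactate library and 366 in the untreated library. The next in the lactate list lay 18928 bp from OR8G1 (124221943 to 124222167, 225 bp), with a pileup of 548 in the lactate and 361 in the untreated library. In the untreated list the cluster region with the highest fold and pileup was that of OR5T2. Identical boundaries in both lists were found at 35 of the 156 lactate (22.4%) and 125 untreated (28%) regions inside the clusters. Of all listed regions, 11.5% of the lactate ones and 14.4% of the untreated ones had them.

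Other kinds of genes inside the clusters had end regions more often than their OR neighbours. Of 20 such genes, 9 had an end region in the lactate library (45%, 23.1 to 68.5) and 8 in the untreated library (40%, 19.1 to 64). Both counts include the joint model TRIM6-TRIM34, which overlaps TRIM6 and has the same upper end as TRIM34. Its regions may thus be counted more than once, which the intervals do not take into account. The ubiquitin ligase genes TRIM21, TRIM68, TRIM5, TRIM6 and TRIM34, several of them known from antiviral defence, had one in both libraries. TRIM68 had a pileup of 105 in the lactate and 54 in the untreated library, and TRIM5 had 78 in the lactate and 64 in the untreated library. TRIM22, MMP26 and all 5 beta-like globin genes, HBB, HBD, HBG1, HBG2 and HBE1, which are erythroid genes, had none in either library. VWA5A was listed in the lactate library alone.

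The distance to the nearest region showed the same order. The median distance from an OR gene end was 13.2 kb in the lactate library (quartiles of 5.51 and 22.4 kb) and 16.2 kb in the untreated library (7.19 and 33.0 kb). For the other genes inside the clusters the median was 3.33 kb in each library, and for those outside it was 0 in each, since a region covered a gene end. More than 50 kb from any region were 10 OR genes in the lactate library (5.95%) and 24 in the untreated library (14.3%). For OR genes of other chromosomes these shares were 12.3% in the lactate and 14.2% in the untreated library. For the other chromosome 11 genes outside the clusters they were 1.17% in the lactate and 1.89% in the untreated library. All 10 members in the lactate library and 22 of the 24 in the untreated library were class II genes. Class II makes up 113 of the 168 members, and all 55 class I genes lie in 1 cluster, so class and position cannot be told apart.

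**Figure D5:**
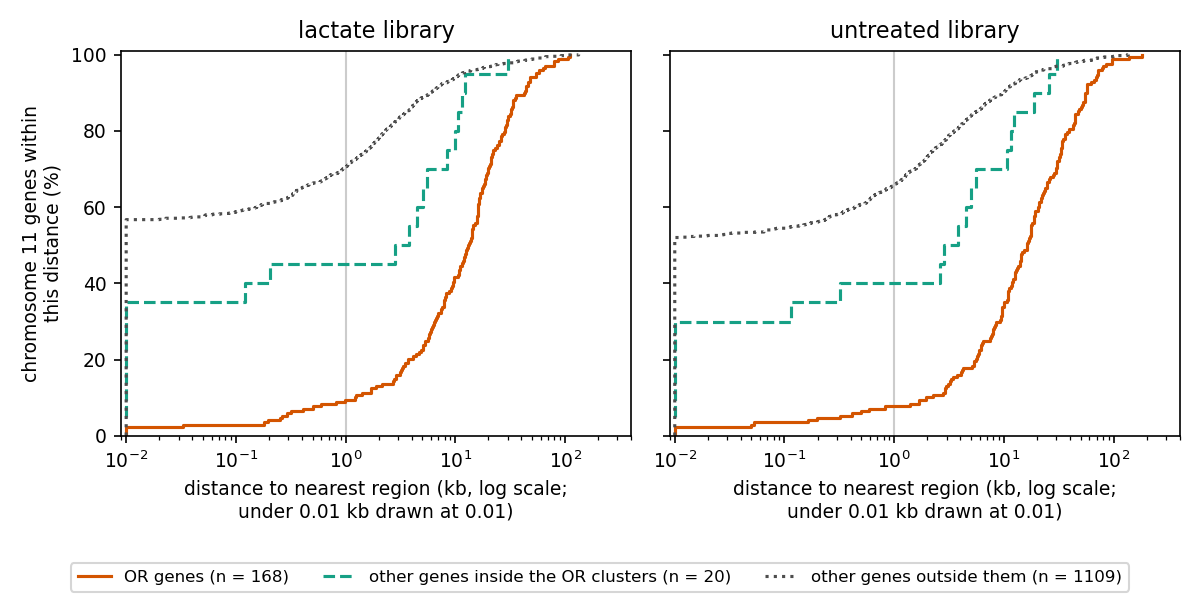
Cumulative percentage of chromosome 11 genes by distance of the nearer gene end to the closest region (kb, log scale), lactate library on the left and untreated on the right, with the 1 kb limit as a grey line. The curve of the 168 OR genes runs to the right of both other curves, with a median of 13.2 kb in the lactate and 16.2 kb in the untreated library.

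Of 15 genes that olfactory neurons use to read or build the odorant response, 11 had an end region in the lactate library (73.3%, 44.9 to 92.2) and 8 in the untreated library (53.3%, 26.6 to 78.7). Both intervals include the shares over all protein-coding genes, 68.3% in the lactate and 63% in the untreated library. All 8 were also among the 11, and the 3 others (20%, 4.33 to 48.1) compare with 6.11% of all protein-coding genes listed by the lactate library only. Open in both were GNAL, the olfactory G protein subunit gene, and CNGA4, a cyclic nucleotide-gated channel subunit gene with a pileup of 137 in the lactate and 84 in the untreated library. EBF1 had 57 in the lactate and 26 in the untreated library, and LHX2 had 26 in the lactate and 22 in the untreated library. RTP2, LDB1, ATF5 and KDM1A completed the 8. ADCY3, ANO2 and RTP1 had weak regions in the lactate library alone, with pileups of 18 for ADCY3, 7 for ANO2 and 6 for RTP1. Several of these genes also act in other cell types, and end regions were not assigned to 1 gene where neighbours lie close.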

How the data were processed

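ATAC-seq tags of both libraries had been called into regions by the authors. Per the submitters' processing notes, fastp 0.20.0, BWA 0.7.12, MACS2 2.1.0 and hg38 were used, while the file headers name MACS 2.2.7.1. Per the file headers, regions were called in each library without a control, at a q-value of 0.05, with tags shifted by 100 bp and extended to 200 bp and all duplicates kept. The deposited pileup is a signal, the unscaled number of extended tags over a summit. The deposited fold enrichment is the ratio of pileup to local background with 1 added to each, and is the authors' value. Starts, ends, widths and summits were deposited in base pairs.

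Regions with several summits were counted once, with the highest pileup and fold. Genes came from a RefSeq table of GRCh38.p14. In it 153 of 19974 protein-coding genes, 3 members among them, were left out as lying outside the primary chromosomes, judged from the order of its rows. Promoter windows, 1 per gene at the outermost start, gave the strand of 135 members. Overlap meant at least 1 bp. The local background was recovered from pileup and fold, and the −log10 Poisson p was recomputed. For ratios, overlapping regions of both lists were merged, and relative ratios divide by the median of the same of 20 bins of summit tags. Named members were the 10 with the highest fold in each library, those in 1 library alone, the 3 highest and 3 lowest ratios and 5 receptors known outside the nose. Other genes came from written lists. The members and lists were chosen with earlier results of these data known. With 1 library per group there was no test. Overlap and ratio code was tested on simulated data. Python 3.11.15, pandas 2.3.3 and scipy 1.17.1 were used.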

Additional observations from a re-analysis of the deposited data

How the results depend on the processing

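No paired analysis was possible because the design has 1 lactate and 1 untreated library. The wider class of narrow regions and the settings for regions per Mb were added after seeing the data. Of 43 alternative values, 29 stayed within 1.5 times the reported count or close to the reported ratio, 14 moved and 0 reversed. A single count or a number of regions per Mb has no direction, so only the median ratio could reverse. Windows of 5 kb gave 38 members in the lactate and 30 in the untreated library, with 11 listed by the lactate library only and 3 by the untreated library only. Over all protein-coding genes it gave 84.3% in the lactate and 79.6% in the untreated library. The start side only, over 135 members with a strand, gave 5 in the lactate and 6 in the untreated library. Of these, 0 were listed by the lactate library only and 1 by the untreated library only. Members in the untreated library alone numbered 2 at a −log10 p of at least 7, at a fold of at least 5 and at equal list length by fold, and 3 without narrow regions or without a wider class of single-summit regions. Shares over all protein-coding genes are not given for the start side. They are also not given for members in 1 library alone under these other settings, so those counts have no background. For class II alone the untreated library had 8 members, of fewer genes. The median ratio of 1.51 became 1.05 relative to regions of equal summit tags. Counts this small limit every share given for a subset of members.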
